A study of Mus musculus with 20 samples.

Results

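ATAC-seq marks DNA that the Tn5 transposase can reach, and the regions reached by it in cultured cells from the distal memory region were compared with those in fresh cells taken 8 weeks after a first wound. Both come from mice of the genotype Lrig1CreER/Rosa-TdTomato, in which the Lrig1 promoter drives an inducible Cre that turns on the red protein tdTomato. The cells are labelled Lrig1 GL Sca1+ epidermal cells, sorted from tail skin to enrich for the upper hair follicle. The cultured group is described as grown from a distal memory region, and the labels place it, with a cultured group from a control (non-memory) region, at 8 weeks after the first wound. The sources used here do not say how long the cells were cultured, in which medium, or whether the libraries of a group come from separate animals. Each of the groups compared has 2 libraries, 4 of the 20 in the series, and is deposited as 1 peak list made from both. Age and sex are not stated either. The other 8 lists, used for reference, are the cultured control region and fresh cells from untreated homeostasis, 1 week after a first wound, 1 week after a second wound, vehicle-treated skin, skin treated with PRT4165 (an inhibitor of the Polycomb ubiquitin ligase), skin exposed to UVB, and wounded skin exposed to UVB.

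Overlapping peaks of a list were merged into regions. A region of the cultured list was called gained when no region of the 8-week list shared 1 bp with it, a region of the 8-week list was called lost in the reverse case, and the rest were shared. The cultured list held 45714 regions and the 8-week list 34644. Gained regions numbered 22595, or 49.4% of the cultured list (Wilson 95% interval 49.0 to 49.9%). Lost regions numbered 11449, or 33.0% of the 8-week list (32.6 to 33.5%). Merged over both lists there were 56815 regions, of which 39.8% were gained, 20.2% were lost and 22771 were shared. With 1 pooled list per group there is no replicate spread, no difference below was tested, and every interval covers counting error only.

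The upper hair follicle, between the bulge and the skin surface, houses Lrig1-positive stem cells that supply the junctional zone and sebaceous gland and that can move into the surface epidermis after a wound. Keratinocytes put into culture leave this niche, attach to a plastic surface, divide and migrate, a state that resembles an activated wound edge and that depends on EGF receptor signals, integrins and matrix proteases. Accessible promoters and enhancers are bound by transcription factors, and tissue memory in skin has been described as enhancers that stay open after an injury has healed.

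Promoters of the gained and lost classes are shown first. Start sites and sequences come from RefSeq promoters on GRCm38.p6 (mm10). It holds 32851 promoters of 300 bases, of which 6.64% were gained and 1.78% lost by the same overlap rule, and 410 of the 594 genes in the gene lists used below matched it. The 4 gained and 4 lost promoters with the highest signal value among list members, leaving out the sex-linked genes, are given here as the 250 bases before the start site, 5′ to 3′ on the strand of the gene. Capitals mark CG dinucleotides, the places where mammalian DNA is methylated. The gained promoters belong to the collagenase Mmp1b, the EGF receptor ligand betacellulin (Btc), the cell cycle inhibitor locus Cdkn2a and the viral RNA sensor Ddx58.
Mmp1b, chr9:7388027-7388276, minus strand: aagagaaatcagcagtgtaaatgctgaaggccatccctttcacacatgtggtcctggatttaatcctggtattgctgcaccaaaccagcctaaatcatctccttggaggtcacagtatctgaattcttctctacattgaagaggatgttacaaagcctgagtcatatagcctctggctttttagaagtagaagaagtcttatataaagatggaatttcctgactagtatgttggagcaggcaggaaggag
Btc, chr5:91402995-91403244, minus strand: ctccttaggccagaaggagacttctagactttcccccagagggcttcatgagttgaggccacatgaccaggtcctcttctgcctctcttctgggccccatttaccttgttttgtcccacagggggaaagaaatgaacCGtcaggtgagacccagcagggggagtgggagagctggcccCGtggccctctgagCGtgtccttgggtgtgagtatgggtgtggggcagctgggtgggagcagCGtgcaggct
Cdkn2a, chr4:89294620-89294869, minus strand: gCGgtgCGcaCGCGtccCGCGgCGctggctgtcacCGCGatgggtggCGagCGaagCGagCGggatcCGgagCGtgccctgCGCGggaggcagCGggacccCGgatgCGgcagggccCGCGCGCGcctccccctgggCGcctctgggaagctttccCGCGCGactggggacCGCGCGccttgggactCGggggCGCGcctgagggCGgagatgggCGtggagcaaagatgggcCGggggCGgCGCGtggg
Ddx58, chr4:40239826-40240075, minus strand: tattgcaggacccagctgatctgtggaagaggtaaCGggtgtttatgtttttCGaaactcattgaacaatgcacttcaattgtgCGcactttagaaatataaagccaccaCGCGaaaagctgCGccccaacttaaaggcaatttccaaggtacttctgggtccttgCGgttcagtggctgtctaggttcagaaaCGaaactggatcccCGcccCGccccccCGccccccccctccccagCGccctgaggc
The lost promoters belong to the alarmin subunit S100a8, the class II antigen presentation gene H2-Aa, the integrin subunit Itgb6 and the antimicrobial defensin Defb6. For Itgb6 the start site in the table lies inside the span of the gene, chromosome 2 from 60598292 to 60722603, so that this promoter does not enter the counts at gene ends below.
S100a8, chr3:90668821-90669070, plus strand: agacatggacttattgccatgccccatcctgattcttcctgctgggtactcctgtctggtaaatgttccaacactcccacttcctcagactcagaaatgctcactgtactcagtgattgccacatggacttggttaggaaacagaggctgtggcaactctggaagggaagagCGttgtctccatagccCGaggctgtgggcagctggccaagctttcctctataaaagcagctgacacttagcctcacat
H2-Aa, chr17:34287824-34288073, minus strand: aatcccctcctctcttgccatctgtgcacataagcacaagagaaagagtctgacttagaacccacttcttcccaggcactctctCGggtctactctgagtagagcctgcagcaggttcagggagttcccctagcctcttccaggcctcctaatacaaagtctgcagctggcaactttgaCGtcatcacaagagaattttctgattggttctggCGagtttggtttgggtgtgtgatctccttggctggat
Itgb6, chr2:60673694-60673943, minus strand: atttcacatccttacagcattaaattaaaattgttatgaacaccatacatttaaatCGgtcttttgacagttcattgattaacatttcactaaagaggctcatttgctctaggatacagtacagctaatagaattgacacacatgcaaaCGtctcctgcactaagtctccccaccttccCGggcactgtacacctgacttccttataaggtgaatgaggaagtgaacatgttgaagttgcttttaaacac
Defb6, chr8:19225228-19225477, plus strand: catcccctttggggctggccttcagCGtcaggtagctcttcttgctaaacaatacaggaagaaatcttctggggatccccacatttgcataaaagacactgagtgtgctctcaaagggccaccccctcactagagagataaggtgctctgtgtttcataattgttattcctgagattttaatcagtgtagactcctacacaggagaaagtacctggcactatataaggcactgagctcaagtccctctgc
The gained promoters ranged from 0 CG dinucleotides at Mmp1b to 40 at Cdkn2a, with 4 at Btc and 12 at Ddx58. The lost ones had 1 at Defb6, 2 at S100a8, 3 at H2-Aa and 3 at Itgb6. The Mmp1b promoter holds a match to the AP-1 motif TGANTCA that starts 93 bases before the start site, and TATAAA 49 bases before it. TATAAA also starts 30 bases before the start site at the lost S100a8 promoter and 153 bases before it at Ddx58. Among the promoters of 300 bases it was found in 8.89% of gained, 9.91% of lost and 13.6% of all. No TGANTCA match lies in the other 7 windows. The Mmp1b region was in the cultured control list and in 0 of the 7 other fresh lists, whereas the Defb6 region was in all 7 other fresh lists and not in the cultured control list. The rest did not split this way. The gained regions at Cdkn2a, Btc and Ddx58 were in 4, 6 and 7 of the other fresh lists. The lost regions at S100a8, H2-Aa and Itgb6 were all in the cultured control list, and in 7, 5 and 6 of the other fresh lists.

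Over all promoters the classes differed in base composition. Median GC content was 59.7% in gained promoters, 54.0% in lost ones, 62.3% in those held by both lists and 48.0% in those held by neither. The ratio of observed to expected CG dinucleotides had medians of 0.66, 0.34, 0.81 and 0.22 in the same order. Motifs were searched on both strands of the 300 bases. TGANTCA was found in 9.21% of gained (8.07 to 10.5%) and 9.40% of lost promoters (7.29 to 12.0%), against 7.81% of all promoters. Its share was 4.97% in promoters held by both lists and 9.10% in those held by neither, so gained and lost promoters were close to the latter. The Sp and KLF motif GGGCGGG was found in 40.8% of gained, 22.2% of lost and 25.6% of all promoters, and the ETS motif CCGGAAG in 8.94%, 4.96% and 8.86%. Promoters held by both lists had more of each, 52.2% and 20.8%, and those held by neither 9.99% and 2.67%. Lost promoters held the E-box CAGCTG in 24.8% of cases (21.5 to 28.4%), gained ones in 15.9% (14.5 to 17.5%) and all promoters in 16.3%. For the LEF and TCF motif CTTTGNT the shares were 21.7%, 15.3% and 18.6%. Promoters held by neither list had CAGCTG in 17.3% and CTTTGNT in 22.3%, and those held by both in 13.9% and 12.0%. GGGCGGG and CCGGAAG contain CG, and the classes differ in CG content as given above.

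The lists differ in ways other than culture. Read depth is not stated. The highest −log10 p of a peak, which grows with depth, was 10960 in the cultured list and 5723 in the 8-week list, and over the 8 other lists it ranged from 5196 to 11234. The 8-week list was the shortest of the 10, which held 34644 to 73340 regions. Regions at the Y-linked genes Ddx3y, Uty and Eif2s3y were present in both cultured lists and in 3 of the 8 fresh lists, and absent from the 8-week list. The span of Xist held 1 region in the 8-week list and 0 in either cultured list. Culture, the depth of the libraries and the sex of the animals therefore cannot be told apart in these lists. Without the sex chromosomes the counts were 22093 gained and 11278 lost.

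Most defining markers of the labelled cells had an open gene end in both lists. Regions within 1 kb of a gene end were present in both for 4 of 5 keratinocyte markers (Krt5, Krt14, Itga6 and Cdh1, with Trp63 in neither) and for 3 of 4 upper follicle markers (Lrig1, Ly6a, which encodes Sca1, and Plet1). The Krt5 end was weak, at percentile 0.311 of signal value in the cultured list and 9.57 at 8 weeks. The 300 bases at the Krt5 start site overlapped a region at 8 weeks and not in culture, and those of Krt14 overlapped none in either list. The keratin Krt79 of the upper follicle had no end region in either list, although 6 of the 7 other fresh lists had one. Of the defining markers of other cells, 0 of 5 for T cells and 0 of 3 for Merkel cells had an end region in either list. In the longer lists described below, 2 T cell genes were open at an end in both lists and 1 end was lost, and 5 of 9 Merkel cell genes gained an end. Among 5 fibroblast markers 1 was open in each list, and among 4 endothelial markers 1 in each. For Langerhans and myeloid cells 3 of 5 were open in the cultured list and 1 in the 8-week list, and for melanocytes 2 and 3 of 5. Open chromatin at a marker does not measure how many cells carry it, and the part of such cells in the differences was not tested.

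Shared regions were the wider and stronger ones. Their median width was 697 bp in the cultured list and 673 bp in the 8-week list, against 441 bp for gained and 554 bp for lost regions. The authors' signal value, an enrichment used here within a list, had a median of 8.21 in gained regions against 11.2 in shared regions of the cultured list, and of 8.201 in lost regions against 10.1 in shared regions of the 8-week list. Within 1 kb of a gene end lay 39.99% of shared regions of the cultured list, 12.0% of gained regions (11.6 to 12.5%) and 7.14% of lost regions (6.69 to 7.63%). Gene ends were also where the lists overlapped most: 91.9% of the 8-week regions at gene ends were found in the cultured list, and 56.6% of those elsewhere. In 4 equal bins of signal value, from the weakest to the strongest, the cultured list held 53.4%, 59.5%, 69.5% and 85.3% of 8-week regions. In the other direction the 8-week list held 31.3%, 42.3%, 58.6% and 70.1% of cultured regions.

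Gained regions were found more often in the cultured control list than in any other fresh list, and lost regions the reverse. Both classes were defined from 1 cultured and 1 fresh list, so part of this split can follow from the rule. Culture cannot be told apart from depth and sex here, as given above. Of the gained regions 87.2% (86.8 to 87.7%) were present in the cultured control list, and 13.2% in homeostasis, 16.7% after the second wound, 24.8% 1 week after the first wound, and 41.2 to 49.9% in the wound and UVB, PRT4165, vehicle and UVB lists, which are the 4 longest. Of the lost regions 19.3% (18.6 to 20.03%) were present in the cultured control list, and 66.6% in homeostasis, 80.7% after the second wound, 89.6% 1 week after the first wound and 94.7 to 97.9% in the 4 longest lists. A set of 9286 gained regions (41.1%) was in none of the 7 other fresh lists, and 7967 of these were in the cultured control list. The remaining 1319 of them (5.84% of gained regions) were in no other list. At the other extreme, 1568 gained regions were in all 7 other fresh lists, so that the 8-week list alone among fresh lists lacked them. Among lost regions 6639 (58.0%) were in all 7 other fresh lists, and 5243 (45.8%) were in all 7 and not in the cultured control list. These shares move with list length: with each list limited to 34644 regions, 58.8% of gained and 5.68% of lost regions were in the cultured control list.

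**Figure D1:**
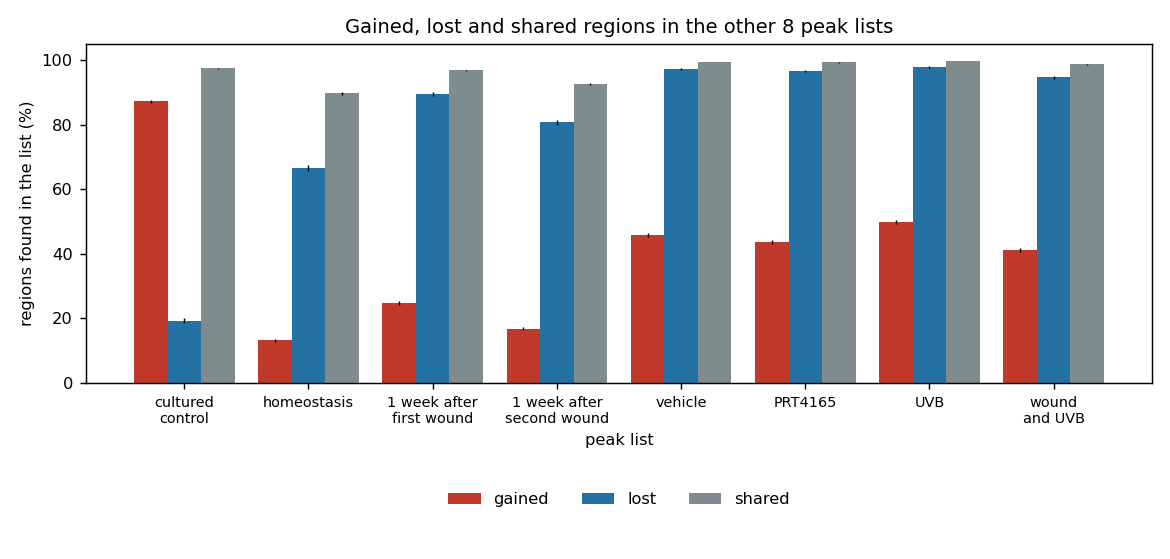
Share of gained (red), lost (blue) and shared (grey, regions of the cultured list) regions found in each of the other 8 peak lists, in percent, with Wilson 95% intervals as lines. The cultured control list held 87.2% of gained and 19.3% of lost regions, and in each of the 7 fresh lists the lost bar is taller than the gained one.

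Regions that the 8-week list held and homeostasis lacked were found in culture less often than the rest. Of these 6195 regions, 38.3% (37.1 to 39.5%) were in the cultured distal list, against 73.2% (72.7 to 73.7%) of the 28449 regions that homeostasis also held. The cultured control list held 44.8% (43.6 to 46.0%) and 77.5% of the same sets. It is the longer of the cultured lists, with 54188 regions, and limited to the 45714 regions of the distal list it held 37.6% and 72.6%. A smaller set of 381 regions was lacking in both homeostasis and vehicle, and 24.4% of it was in the cultured distal list against 22.6% in the control list of equal length. At equal length the cultured lists thus held nearly the same share of each set. The median signal value was 7.46 in the set of 6195 and 10.02 in the set of 28449. Among the strongest 50% of the 8-week list, with medians of 10.5 and 12.4, the cultured distal list held 45.3% and 79.6% of the sets.

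**Figure D2:**
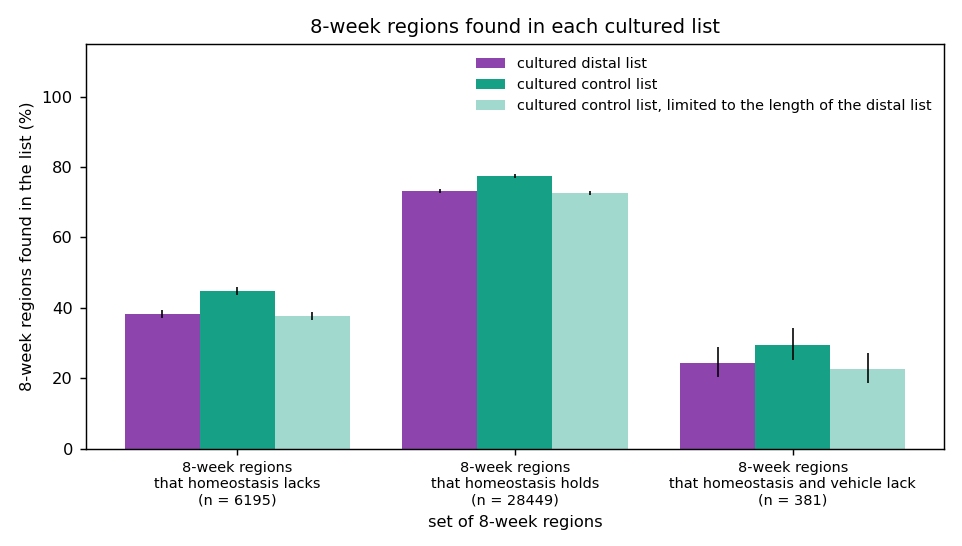
Share of 8-week regions found in the cultured distal list (purple), the cultured control list (dark green) and the cultured control list limited to the length of the distal list (light green), in percent, with Wilson 95% intervals, for 3 sets of 8-week regions. The distal and length-limited control bars stand at 38.3 and 37.6% for regions that homeostasis lacks.

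A region counted for the shortest protein-coding gene around its summit, or failing that for the gene whose end was closest, up to 100 kb away. Of 21883 genes, 32.5% had more gained than lost regions and 11.4% the reverse. At gene ends the call was made per gene, from a region within 1 kb of either end of the gene span, since the gene table gives no strand. By that call 10028 genes were open in both lists, 1777 (8.12%) were gained and 461 (2.11%) were lost. The gained ends were in the cultured control list for 1629 genes and in no other fresh list for 219. The lost ends were in the cultured control list for 201 genes, and 260 were in all 7 other fresh lists. A gained end can also be one that the 8-week list alone lacked among fresh lists. Besides others given below, the ends of Adm, Aqp3, Cbx2, Ccnd2, Fzd10, Smad6 and Tlr2 were in 7 fresh lists. An end is not always a start site. Of 97 list members with a gained end, 70 are in the promoter table. A start site was gained too at 46 of them, was open in both lists at Gata3 and Plaur, and was open in neither at 22. Those 22 are Acsbg1, Cux1, Erg, Foxa1, Hoxa6, Hoxa10, Hoxb1, Hoxb4, Hoxd3, Krt10, Krt25, Krt27, Lhx9, Lor, Mpeg1, Nkd1, Nkx2-2, Postn, Sim1, Tnf, Wnt6 and Wnt10b. Of 21 members with a lost end 14 are in the table, with a start site lost at 9 and open in neither list at Dct, Hoxb8, Krt7, Nfix and Tead2. Against the shares over all genes, 32 lists with 589 genes, of which 583 were found, were compared. More regions were gained than lost in 30 of the 32 lists, with 2 even. Because the cultured list is longer, the shares of all regions (39.8% gained, 20.2% lost) are the level to read each list against. With both lists cut to 34644 regions 16 gene lists had more gained than lost regions and 15 had fewer. The 9 lists named next lay above all regions in gained minus lost share, under the overlap of 50%, the stricter score, equal length, the strongest 50%, autosomes, homeostasis as the reference, the cultured control list and the 20 kb distance alike. They are EGFR and its ligands, migration genes, inflammatory cytokines, the interferon response, p53 targets, hair shaft genes, Hox genes, other developmental regulators and Merkel cell markers. The 6 lists below all regions under each of these were suprabasal differentiation, bulge and lower follicle, AP-1 and immediate early genes, glycolysis and hypoxia, the Wnt pathway, and clock and glucocorticoid genes. Most of these settings re-cut the same lists, so a kept side is not an independent check. The margin fell to 0.44 points for the interferon response, 2.38 for p53 targets, 3.99 for Hox genes and −1.91 for AP-1 genes.

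**Figure D3:**
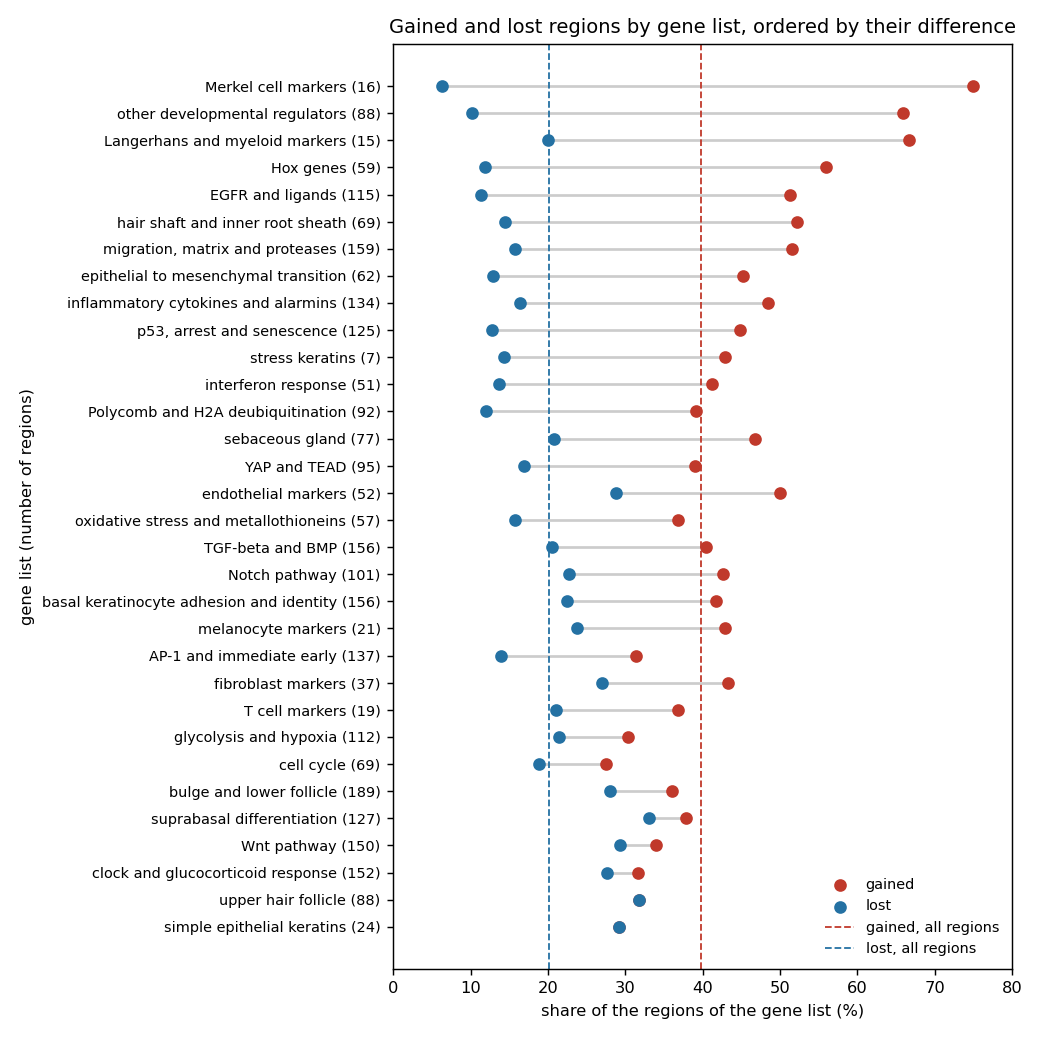
Share of the regions of each gene list that were gained (red points) and lost (blue points), in percent of its gained, lost and shared regions (their number is in brackets). Dashed lines give the shares over all regions, 39.8 and 20.2%, and the lists are ordered by gained minus lost share, from 0 at the upper hair follicle and simple keratins to 68.8 at the Merkel cell markers, a list of 16 regions.

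The list of the EGF receptor, its relatives, ligands and feedback regulators had 59 gained, 13 lost and 43 shared regions, so 51.3% were gained (42.3 to 60.2%) and 11.3% lost (6.73 to 18.4%), and 10 of its 16 genes had more gained than lost regions. Gene end regions were gained at 5 genes and lost at 0. All 5 encode ligands, epigen (Epgn), epiregulin (Ereg), amphiregulin (Areg), betacellulin (Btc) and TGF-alpha (Tgfa), and the first 4 are neighbours on chromosome 5. Strength is given below as a percentile, the share of the regions of a list with an equal or lower signal value. The Btc end stood at percentile 78.2 of signal value in the cultured list and percentile 66.5 in the cultured control list. In the fresh lists it was present in 6, from percentiles 38.9 to 64.7 with a median of 52.4, and absent at 8 weeks and in homeostasis. The Ereg end was at percentiles 46.7 and 54.8 in the cultured lists and in 2 fresh lists, at 10.7 and 26.4. For Areg and Epgn the picture differed, since all 7 other fresh lists held the end and the 8-week list alone did not. The receptor gene Egfr had 12 gained, 2 lost and 7 shared regions with its end open in both, and neuregulin 1 (Nrg1) had 14, 3 and 7.

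Genes of migration, matrix and proteolysis had 82 gained, 25 lost and 52 shared regions, and 20 of 25 had more gained than lost regions. Their gained share was 51.6% (43.9 to 59.2%) and their lost share 15.7%. End regions were gained at 8 genes and lost at 0. The interstitial collagenases stood out by list: the Mmp1b end was at percentile 85.2 in the cultured list, at percentile 90.4 in the cultured control list and in 0 of 8 fresh lists. The Mmp13 end was at 57.7 and 76.1 in the cultured lists, and in 2 fresh lists at 44.0 and 50.9. The metalloprotease Adam12 had 8 gained, 0 lost and 1 shared region, all 8 of them in both cultured lists and in no fresh list, and its end was at 11.4 and 15.9. The urokinase receptor Plaur was at 65.4 and 72.4 in the cultured lists, and from 12.1 to 52.9 in 5 fresh lists. The 300 bases at the Plaur start site in the promoter table were open in both lists, with a signal value of 4.25 in culture and 8.79 at 8 weeks. The ends of fibronectin (Fn1) and podocalyxin (Podxl) were at percentiles 27.99 and 43.0 in the distal list and absent from the cultured control list, while 3 and 7 fresh lists held them. The cornified envelope gene Sprr1b and the protease Adamts1 complete the gained ends of this list. They were at percentiles 41.9 and 2.78 in the distal list, and in 4 and 5 fresh lists. Tenascin C (Tnc), a matrix protein of wounds, had 10 gained, 2 lost and 2 shared regions, and the urokinase gene Plau 5, 1 and 2. In the list of epithelial to mesenchymal transition, the repressor Zeb1 and the cadherin Cdh2 gained their ends, as did Foxc2. The Zeb1 end was at percentiles 34.7 and 41.8 in the cultured lists, within its range of 31.2 to 61.6 in 5 fresh lists. The Cdh2 end was at 7.56 in the distal list and absent from the cultured control list. It was in 2 fresh lists, with a median of 28.3. Foxc2 was at 23.9 and 15.9 in the cultured lists, and in 2 fresh lists at 16.4 and 16.6. Zeb2 had 7 gained, 1 lost and 0 shared regions.

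The list of inflammatory cytokines and alarmins had 65 gained, 22 lost and 47 shared regions, with more gained than lost at 16 of 24 genes. More ends were gained than lost, with gains at the genes Ccl20, Csf3, Tnf, Il1a, Tlr2 and Cxcl2 and losses at Il33, S100a8 and Cxcl5. The chemokine Ccl20 stood at percentile 83.1 in the cultured list and 81.7 in the cultured control list, above its range of 20.2 to 39.9 in the 7 fresh lists that held it. Il1a, the preformed cytokine of keratinocytes, was at 71.2 and 74.1 in the cultured lists, within its range of 61.6 to 96.4 in 6 fresh lists. S100a8 went the other way, with its end in all 8 fresh lists from percentiles 57.0 to 89.9 (median 82.4), absent in the cultured list and at 26.6 in the cultured control list. The Il33 end was in all 8 fresh lists, between 5.55 and 35.3, and in neither cultured list, although the gene had 7 gained, 5 lost and 4 shared regions. Ptgs2, the inducible prostaglandin synthase, had 8, 1 and 8, with 5 of the gained regions in both cultured lists and no fresh one. Its end was open in both lists, and the shared region there was lower in rank in culture, as given below. In the interferon list, 21 gained, 7 lost and 23 shared, the ends of Ddx58 and Irf8 were gained and 0 lost.

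Of the genes of p53 signalling, arrest and senescence 16 of 23 had more gained than lost regions, and the counts were 56 gained, 16 lost and 53 shared. The ends of 21 of the 23 were open in both lists. The end of 1 gene was gained, that of Cdkn2a, whose products arrest cells in culture. It was at percentile 77.6 in the cultured list, 78.6 in the cultured control list, and between 37.9 and 71.9 in 4 fresh lists. It had 6 gained, 0 lost and 1 shared region, as did the cell death gene Pmaip1. The adjacent Cdkn2b was open in all 10 lists, at 85.7 in the cultured list, 61.8 at 8 weeks and 58.3 to 75.3 over the fresh lists. Gadd45a had 5 gained, 0 lost and 7 shared regions and Gadd45g 4, 0 and 2.

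Developmental regulators, which are silenced by Polycomb in most adult cells, had the highest gained shares among lists of over 20 regions. The 39 Hox genes had 33 gained, 7 lost and 19 shared regions, or 55.9% gained (43.3 to 67.8%). Hox ends were gained at 13 genes and lost at Hoxb7 and Hoxb8, and since these genes are close neighbours, 1 region can serve more than 1 end. The posterior genes Hoxb13 and Hoxa13 were open in both cultured lists, at percentiles 46.8 and 13.8 in the distal list, and in 0 fresh lists. Hoxb6 was open in the distal list alone. Hoxd1, at 71.4, was absent in the cultured control list and in 6 fresh lists at 39.6 to 77.6. The Hoxb8 end was in all 8 fresh lists, with a median at percentile 45.3, and at 1.72 in the cultured control list. Outside the Hox clusters, 41 other regulators had 58 gained, 9 lost and 21 shared regions, 65.9% gained (55.5 to 74.96%), with ends gained at 11 and lost at 0. Lhx9 was the strongest of these at percentile 88.8, against 17.7 and 20.9 in the 2 fresh lists that held it, followed by Foxa1 at 78.1, Isl1 at 72.1 and Sox2 at 63.3. Foxa1 was at 63.1 to 71.4 in 4 fresh lists. Isl1 and Sox2 lay within their fresh ranges, 43.9 to 83.1 in 6 lists and 33.9 to 69.97 in 5. The regions at Lhx9 and Foxa1 lie outside the start site windows of these genes, which were open in neither list. The Polycomb genes themselves had 36 gained, 11 lost and 45 shared regions, with the ends of Cbx2 and Cbx6 gained.

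Genes of the upper follicle, of suprabasal differentiation and of the bulge had lost shares above that of all regions. The upper follicle list had 28 gained, 28 lost and 32 shared regions, so 31.8% were lost (23.0 to 42.1%), but with the strongest 50% of each list its gained minus lost share lay 6.71 points above that of all regions. Its lost ends were at Lgr6, a stem cell receptor of the upper follicle, the protease inhibitor Cst6 and Defb6, and its gained ends at the water channel Aqp3 and Atp6v1c2. The Aqp3 end, at percentile 2.29 in the cultured list, was in 7 fresh lists, all but the 8-week list. Defb6 was in all 8 fresh lists, from 35.2 at 8 weeks to 89.8 with a median of 87.7, and in neither cultured list. Cst6 was in all 8, from 37.3 to 85.02, and in neither cultured list. Lgr6 was in 7 fresh lists, from 10.4 to 58.8, and at 7.41 in the cultured control list. Gata6, a regulator of the sebaceous duct, had 1 gained, 5 lost and 2 shared regions. Lrig1 itself went against its list with 8 gained, 1 lost and 7 shared regions, and its end was at percentile 84.1 in culture and percentile 61.5 at 8 weeks.

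For suprabasal differentiation the counts were 48 gained, 42 lost and 37 shared, 33.1% lost (25.5 to 41.6%). Ends were lost at Krtdap and at the desmosomal cadherins Dsc1 and Dsg1a, all 3 of which were in all 8 fresh lists and neither cultured list. Dsg1a ranged from 54.9 to 85.1 in the fresh lists and Dsc1 from 46.4 to 82.4. By contrast the suprabasal keratins Krt1 and Krt10 and loricrin (Lor) gained ends. Krt10 was at percentiles 56.9 and 68.9 in the cultured lists and at 7.50 to 9.95 in the 4 fresh lists that held it, while Krt1 was absent from the cultured control list. The Lor end was in 7 fresh lists, all but the 8-week list, and the Krt1 end in 5. The transglutaminase Tgm3 had 1 gained, 5 lost and 2 shared regions. The bulge and lower follicle list had 68 gained, 53 lost and 68 shared regions. Its quiescence factor Nfatc1 had 4 gained, 11 lost and 8 shared, and 9 of the lost regions were in all 8 fresh lists and neither cultured list. Runx1, a factor of activated follicle cells, had 10 gained, 3 lost and 7 shared regions. Postn gained its end, at percentile 94.7 in the cultured list, 83.0 in the cultured control list and 9.40 to 26.5 in 5 fresh lists. The ends of Lgr5 and Tbx1 were gained and that of Nfix lost.

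Keratins of simple epithelia had 7 gained, 7 lost and 10 shared regions. Krt8 and Krt18, partners in simple epithelia, and Krt80 gained ends, whereas Krt7 lost its end together with all 3 of its regions. The Krt8 end was at percentiles 50.4 and 62.7 in the cultured lists, and in 2 fresh lists, 1 week after the first wound and wound and UVB. A cultured region within 1 kb of this end, of signal value 9.57, overlapped an 8-week region of value 7.16 that lay past 1 kb. The percentiles do not tell this shared region from the gained one. The start site of Krt8 was gained too. Krt18 was at 19.6 and 33.3, and in the wound and UVB list alone among fresh lists. The Krt80 end was in 7 fresh lists, all but the 8-week list. Krt7 was in all 8 fresh lists, from 14.1 to 56.3, with the highest value at 8 weeks. The stress keratins Krt6a, Krt16 and Krt17 were open in all 10 lists. Among basal adhesion genes, with 65 gained, 35 lost and 56 shared regions, the hemidesmosome genes Dst and Col17a1 gained ends and Krt15 lost its own. Integrin beta 1 (Itgb1) had 8 gained, 0 lost and 4 shared regions.

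**Figure D4:**
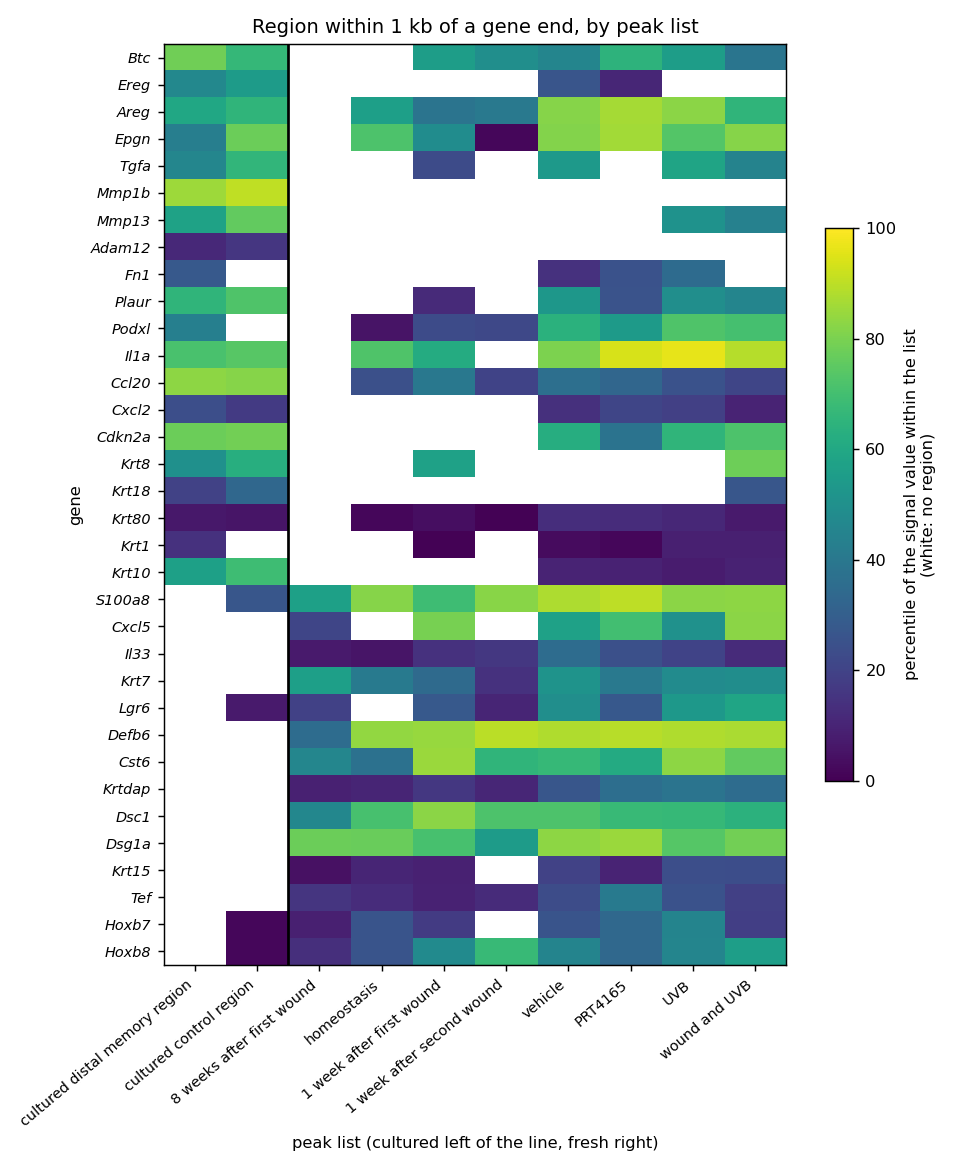
Presence and strength of a region within 1 kb of a gene end for 34 genes named in the text (rows) in the 10 peak lists (columns), coloured by the percentile of the signal value within each list, with white for no region. The upper 20 genes have a region in the cultured distal list and not at 8 weeks, and the lower 14 the reverse. Percentiles of different lists are not on 1 scale.

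Wnt pathway genes had 51 gained, 44 lost and 55 shared regions, 29.3% lost (22.6 to 37.1%), and yet ends were gained at 7 genes and lost at 0. The gained ends were at the ligands Wnt3, Wnt6, Wnt7a, Wnt9a and Wnt10b, the receptor Fzd10 and the inhibitor Nkd1. Wnt7a had 5 gained and 0 lost regions and Wnt10a 6 gained, 0 lost and 2 shared. Among the receptors, Ror2 had 1 gained, 6 lost and 3 shared regions and Lrp5 1, 6 and 4. In the clock and glucocorticoid list, 48 gained, 42 lost and 62 shared, Rora had 4, 9 and 5, and the output factor Tef lost its end, present in all 8 fresh lists between 9.42 and 40.8. Glycolysis and hypoxia genes had 34 gained, 24 lost and 54 shared regions. The oxygen sensor Egln3 had 2 gained, 7 lost and 2 shared, adrenomedullin (Adm) 8, 2 and 1, and the end of Car9 was lost and that of Adm gained. The Adm end, at percentile 4.74 in the cultured list, was in 7 fresh lists, all but the 8-week list. AP-1 and immediate early genes were mostly shared, with 43 gained, 19 lost and 75 shared regions and 17 of 20 ends open in both lists. The end of Batf3 was gained, and Jun had 7 gained, 1 lost and 5 shared regions.

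TGF-beta and BMP genes had 63 gained, 32 lost and 61 shared regions, shares close to those of all regions. The signal transducer Smad3 had 11 gained, 0 lost and 8 shared regions, and Tgfb2 9, 0 and 4, while Bmp7 had 3, 8 and 6. The ends of Tgfb3 and Smad6 were gained. In the YAP and TEAD list, 37 gained, 16 lost and 42 shared, Ccn2 and Nuak2 gained ends and Tead2 lost its end, which was in all 8 fresh lists. The ends of Ccn2 and Nuak2 were in 7 fresh lists, all but the 8-week list. That of Ccn2 was at percentile 5.99 in the distal list and absent from the cultured control list. Notch genes had 43 gained, 23 lost and 35 shared regions, with the coactivator Maml2 at 14, 5 and 6 and the end of Dll1 gained. The cell cycle list had 19 gained, 13 lost and 37 shared, and 14 of its 17 ends were open in both lists, with the end of Ccnd2 gained. Oxidative stress genes had 21, 9 and 27, with 0 ends in either class. Hair shaft and inner root sheath genes had 36 gained, 10 lost and 23 shared regions, with ends gained at Foxn1, Krt25, Krt27, Gata3, Msx1 and Cux1. The ends of Krt25 and Krt27 were in no fresh list. Those of Foxn1 and Cux1 were in 7 fresh lists, all but the 8-week list, and those of Gata3 and Msx1 in 6 and 4. The start sites of Krt25, Krt27 and Cux1 were open in neither list and that of Gata3 in both. Sebaceous gland genes had 36, 16 and 25, with ends gained at Soat1, Acsbg1 and Elovl4.

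Markers of cells other than keratinocytes moved in both directions and rest on few regions. Langerhans and myeloid markers had 10 gained, 3 lost and 2 shared regions. The end of Csf1r, the macrophage growth factor receptor, was at percentile 91.9 in the cultured list and 90.8 in the cultured control list and in no fresh list, while Ptprc and Cd207 had no end region in any list. Cd74, Cd68, H2-Ab1 and Mpeg1 gained ends, which were in 5, 7, 6 and 4 fresh lists in that order. H2-Aa lost its end, which was in 6 fresh lists and in the cultured control list. Endothelial markers had 26 gained, 15 lost and 11 shared regions, with Kdr open in both cultured lists and no fresh list, the end of Erg gained, and that of Tek lost. Merkel cell markers had 12 gained, 1 lost and 3 shared regions, with 7 of the gained at Piezo2. Their gained ends were at Isl1, Krt8, Sox2, Insm1 and Syp, genes that other lists or other cells also use. Fibroblast markers had 16, 10 and 11, T cell markers 7, 4 and 8 and melanocyte markers 9, 5 and 7. The ends of Thy1 and Dct were lost, both present in all 8 fresh lists and in neither cultured list.

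By gene, gained regions outnumbered lost ones most at Pde4d. This phosphodiesterase gene, which spans 1302 kb, had 26 gained, 7 lost and 13 shared regions, and the synaptic scaffold Dlg2 had 21, 4 and 4 over 1973 kb. They were followed by Stard13 (17 gained and 2 lost), Zfp608 (18 and 3), Basp1, Kirrel3 and BC107364 (15 and 0 each), Zfhx3 (14 and 0), Ank3 (17 and 4) and Ank2 (13 and 0). BC107364 and Basp1 are the shorter ones, with 20.6 and 50.5 kb, and 9 of the gained regions of each were in both cultured lists and no fresh list. In the other direction stood the scaffold Pdzd2 (1 gained and 14 lost), Tiam1, an activator of the GTPase Rac (6 and 17), Tenm2 (1 and 12), Hivep2 (3 and 13), Cachd1 (1 and 10), Mcc (7 and 15), Rapgef4 (1 and 9), and the epidermal genes sciellin (Scel, 0 and 8) and Dapl1 (0 and 8). The lost regions at Scel, a component of the cornified envelope, and at Dapl1, a gene of differentiating epithelium, covered 8 of 14 and 8 of 12 of their regions. Over the 10 highest and 10 lowest genes, 59 of 160 values under the alternatives tried moved outside the limits set, and 0 changed sign. These genes were chosen as the extremes of gained minus lost, and most alternatives re-cut the same lists. The kept direction is therefore not an independent check.

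Among the strongest gained regions were those in Adamts6 (chromosome 13, 104460279 to 104460808, signal value 36.8) and Hspa4l (chromosome 3, 40761339 to 40761720, 31.8), near Trim52 (chromosome 14, 106156441 to 106157032, 31.4) and in a stretch of chromosome 7 with no gene assigned (59027415 to 59027863, 31.6). These 4 were in the cultured control list, and the one on chromosome 7 was in 0 other fresh lists. The strongest lost regions lay in Plxdc2 (chromosome 2, 16683000 to 16683216, signal value 45.6) and Acacb (chromosome 5, 114173030 to 114173233, 34.7), near Ccl21a (chromosome 4, 42798665 to 42799178, 26.3) and in Oxr1 and Rsu1. Those at Plxdc2 and Acacb are 217 and 204 bp wide, narrower than the median lost region, and were in 3 and 6 of the 7 other fresh lists. The regions near Ccl21a and in Oxr1 were in the cultured control list and in all 7 other fresh lists.

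Shared regions were compared by rank, since signal values of separate lists are not on 1 scale. Each of the 22771 shared regions received a percentile among the shared regions of each list. The Spearman correlation across regions, which are not independent replicates, was 0.66. For reference it was 0.94 between the cultured distal and cultured control lists over 41712 shared regions and 0.86 between 8 weeks and homeostasis over 28131. Near gene ends the correlation was 0.77, and elsewhere 0.57. A rank higher in culture by 25 percentile points or more was found for 2982 regions (13.1%) and a lower one for 2966 (13.0%), shares that ranking keeps nearly equal. Within 1 kb of gene ends the shares were 9.59% and 8.68%, and elsewhere 15.5% and 15.95%.

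**Figure D5:**
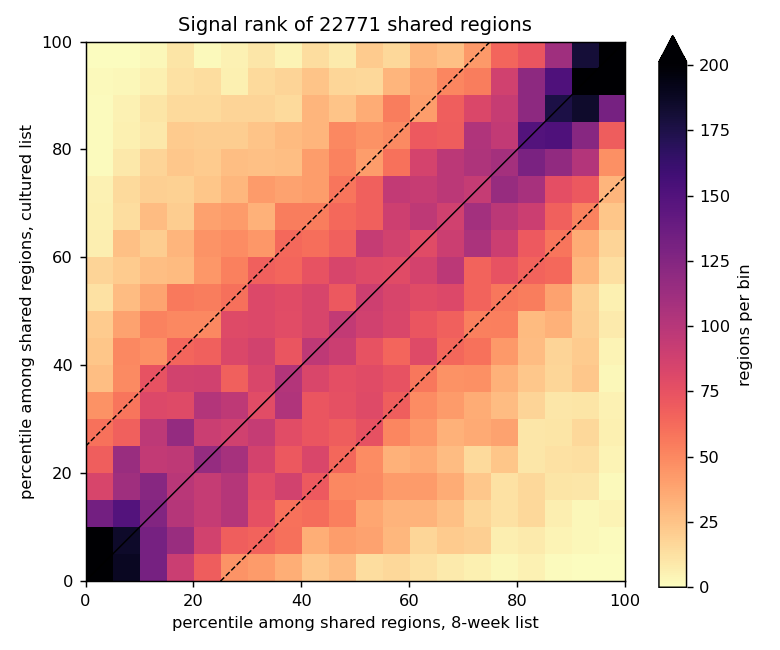
Percentile of the signal value among the 22771 shared regions in the 8-week list (horizontal axis) and in the cultured list (vertical axis), as the number of regions per bin of 5 percentile points (the colour scale is capped). The solid line marks equal rank and the dashed lines a difference of 25 percentile points, past which 13.1% of regions lie above and 13.0% below.

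At gene ends the largest upward shifts were at Ide, an insulin-degrading protease (percentile 9.003 at 8 weeks and 91.3 in culture), the citron kinase Cit of cytokinesis (12.5 and 94.5), the phospholipid scramblase Plscr1 (6.29 and 85.9), Zfp280b (17.1 and 95.1), the acyl-CoA binding protein Dbi (2.38 and 77.6) and Phax (17.7 and 92.5). The largest downward shifts were at Gde1 (92.6 and 11.1), the mitochondrial carrier Slc25a12 (87.0 and 8.85), Sec14l4 (82.2 and 5.23), Npy4r (87.4 and 11.0), the transporter Abcb8 (91.1 and 15.4) and Tnfsf18 (85.7 and 12.1). Members of the gene lists were among those that shifted. In the clock and glucocorticoid list 6 of 21 regions at gene ends were higher and 2 lower. The clock repressor Per2 went from percentiles 4.32 to 57.8, Dbp from 0.760 to 30.2, Hlf from 32.6 to 73.2 and Ciart from 49.2 to 76.2, and the glucocorticoid-induced genes Fkbp5 from 37.1 to 89.6 and Klf9 from 20.6 to 51.8. Clock (76.5 to 46.4) and Bhlhe40 (62.9 to 31.8) were lower. Per2, Hlf and Bhlhe40 each had another shared region at an end. Those went from 3.97 to 3.01, from 7.04 to 1.55 and from 40.3 to 37.6, so these shifts hold for 1 region and not for the gene. The time of day at collection is not stated. In the p53 list 6 of 23 were higher and 0 lower, among them Pmaip1 (41.1 to 74.3), Btg2 (49.96 to 77.2) and Cdkn2b (53.05 to 79.5). The TGF-beta list had 3 of 15 higher and 0 lower, with Tgfb1 going from 19.6 to 52.9, Id1 from 0.659 to 31.7 and Smad4 from 13.1 to 40.1. Metabolic genes with higher ranks were Hk2, the inducible hexokinase (25.2 to 69.4), Pdk1 (58.0 to 87.2) and Pfkp (31.3 to 59.3). Another shared region at a Pfkp end went from 34.8 to 25.95. The transcription factors Snai1 (29.6 to 89.5) and Snai2 (94.8 to 54.8), both of epithelial to mesenchymal transition, went in opposite directions. Hoxc5 (73.6 to 5.15), Tead4 (67.8 to 18.5), Ptgs2 (79.7 to 44.3) and the myeloid factor Spi1 (87.7 to 45.3) were lower. Il18 (25.4 to 83.9), Cbx8 (12.3 to 71.9) and Nkx6-1 (16.2 to 87.6) were higher. The list members in this paragraph were chosen after their values were seen.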

How the data were processed

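Peak lists were used as the authors deposited them, 1 per group and each made from both libraries of its group, in mm10 coordinates, per the submitters' processing notes. Aligner, peak caller and depth are not stated in the sources at hand. The deposited lists have no header, and by the order of narrowPeak columns each gives a score, a signal value and −log10 p per peak. Percentiles are ranks of the deposited signal value within a list. Overlapping peaks were merged within each list for chromosomes 1 to 19, X and Y. Value and summit are those of its strongest peak. Overlap counts equalled those of bedtools 2.31.1 and were tested on simulated data with regions removed, added and raised in rank. Shares carry Wilson 95% intervals. Python 3.11.15, numpy 2.4.6, pandas 2.3.3 and matplotlib 3.10.9 were used. Groups follow the sample titles. No test was possible with 1 list per group. Genes were taken from a RefSeq table of GRCm38.p6 without strand. Named genes are the 10 highest and 10 lowest by gained minus lost regions, up to 4 members of a gene list by the same measure, members with a gained or lost end, the 5 strongest gained and 5 strongest lost regions and the 6 largest rank shifts each way. A few items that this rule names are not reported here. Members and lists were chosen with earlier results of these data known.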

Additional observations from a re-analysis of the deposited data

How the results depend on the processing

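No paired analysis was possible because each deposited list merges both libraries of its group, and leaving out a library was not possible for the same reason. The plan to search motifs around summits was not run, as no genome was given. Of 62 values other than those of single lists and genes, 35 stayed within the limits set and 27 moved outside them. These are counts and shares, which have no sign to reverse. Of 256 values of gained minus lost for single gene lists, 66 moved outside the limits and 17 reversed. Gained regions numbered 14981 with lists of equal length, 11713 with the strongest 50% of each list and 8152 with the strongest 50% against the whole other list. Lost regions numbered 5545 with a score of at least 830, 6174 with the strongest 50% of each list and 3908 against the whole other list. The last of these settings and the shorter lists hold fewer regions by construction. Of 32 gene lists 16 had more gained than lost regions at equal length. That setting put gained minus lost at −40.0% for stress keratins, −12.4% for basal adhesion, −20.2% for suprabasal differentiation, −22.2% for bulge and lower follicle, −19.8% for AP-1, −9.60% for TGF-beta, −8.97% for YAP and TEAD, −12.5% for cell cycle, −13.1% for glycolysis, −26.7% for Wnt, −3.53% for Notch, −26.5% for clock and −30.8% for T cell markers. The lists that were even in the main comparison fell to −72.2% for simple epithelial keratins and −19.2% for the upper hair follicle. The clock list was at −5.77% with the strongest 50%, suprabasal differentiation at −0.77% against homeostasis and −7.06% within 20 kb, and fibroblast markers at −13.6% within 20 kb. Shared regions shifted by at least 10 points numbered 6717 higher and 6756 lower, and by 40 points 1191 and 1148. With an overlap of 50%, 83.0% of gained and 16.1% of lost regions were in the cultured control list, 44.6% of gained regions were in none of the 7 other fresh lists and 51.3% of lost regions in all 7. With other lists limited to the shortest length these values were 58.8%, 5.68%, 67.4% and 35.4%. The cause of these moves other than list length was not tested. The use of promoter start sites and of cultured lists of equal length was chosen after seeing the data. Depth is unknown, so no limit from it can be given.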
